A study of Mus musculus with 12 samples.

Results

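The regions described here carried H4K8ac, acetylation of lysine 8 on histone H4, in neonatal but not in adult oligodendrocyte progenitor cells (OPCs) of the mouse forebrain, as far as peak calling could tell. They were chosen from the authors' peak lists by a rule on the lists themselves: overlapping peaks of the 6 H4K8ac lists (1 bp or more in common) were joined, and a merged region was kept if at least 2 of the 3 neonatal lists and none of the 3 adult lists held a peak in it. The rule kept 249 of 98027 merged regions (0.254%), and these 249 were 2.70% of the 9217 regions found in at least 2 neonatal lists. The other 8968 regions shared by neonatal lists held an adult peak as well.

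The neonatal cells came from mice at postnatal day 5 and the adult cells at postnatal day 60. All mice carried the PdgfrαH2BEGFP allele, which marks cells expressing Pdgfra with a nuclear green fluorescent protein, and the cells were sorted on that label, so each sample is that labelled population as a whole. Each age had 3 biological replicates of chromatin immunoprecipitation with sequencing (ChIP-seq) and 3 input libraries; peak lists of the 6 H4K8ac libraries were analysed and inputs were not analysed here. In such bulk samples, a mark in fewer cells and less mark per cell cannot be told apart.

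Acetylation of the histone H4 tail is laid down by lysine acetyltransferases and read by bromodomain proteins, and it is found at active promoters and enhancers. OPCs arise before and after birth from progenitors of the ventral and dorsal forebrain, divide rapidly in the first postnatal weeks, and persist in the adult brain as slowly dividing cells. Promoters set where transcription starts, while distal and intronic elements can act on a gene over long distances, so a gene assigned to a region by position is not thereby its target.

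The lists differed greatly in length, and this bears on every count below. Replicates 1, 2 and 3 held 9097, 31189 and 7353 peaks in the neonatal cells and 72278, 72661 and 77002 in the adult cells. Neonatal replicate 2 held a peak in all 249 regions, replicate 1 in 192 and replicate 3 in 96, and no region rested on replicates 1 and 3 without replicate 2. Of the 249 regions, 39 were in all 3 neonatal lists, 153 in replicates 1 and 2, and 57 in replicates 2 and 3. When the rule was applied without neonatal replicate 2, it kept 43 regions, 34 of which overlapped one of the 249. Without neonatal replicate 1 it kept 96. The lists give no read totals, so the depth behind them is unknown, and a region outside the adult lists is one where no adult peak was called rather than one shown to lack the mark.

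The sorted label was checked against cell type markers through promoter peaks. All 6 OPC markers had a promoter peak in each neonatal list, and 6, 5 and 6 had one in adult replicates 1, 2 and 3. The 4 markers of myelinating oligodendrocytes, the mature cells that OPCs give rise to, had promoter peaks in no neonatal list and in all adult lists. Of 5 neuronal markers, 0, 2 and 1 had a promoter peak in the neonatal lists and 3, 2 and 2 in the adult lists. Of 4 astrocyte markers, the counts were 1, 2 and 1 against 2, 0 and 3. No microglial (4) or endothelial (3) marker had a promoter peak in a neonatal list, against 1 of each in every adult list. Of 4 fibroblast and mural markers, neonatal replicate 2 held 2 and the other neonatal lists none, and on the longer list of 16 such genes it held 8 against 1 and 0; the adult lists held 1 marker each and 6, 3 and 5 of the 16. The same library held more promoters of 16 housekeeping genes too, with 14 against 8 and 6, and each adult list held 15. None of these markers was assigned a region of the 249, and the part of other cell types in the results was not tested.

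The promoters of 7 genes among the 20 strongest regions found in all 3 neonatal lists are shown for the DNA at or next to such peaks. RefSeq promoter windows (assembly GRCm38.p6, matching the GRCm38 build of the files) were matched by gene symbol, which gave a window for 9 of the 14 promoter regions among these 20. For 6 genes the window from 250 bases before to 50 bases after a start overlapped the neonatal region itself. The Igf2bp3 window lay 399 bp from its region and is shown because that region had one of the largest differences between the ages. The 250 bases upstream of each start follow, 5′ to 3′ on the gene's strand, in lower case with the GC box GGGCGG or its reverse complement CCGCCC, which Sp1 family factors can bind, in capitals.
Fbn1 (chr2:125506439-125506688, minus strand): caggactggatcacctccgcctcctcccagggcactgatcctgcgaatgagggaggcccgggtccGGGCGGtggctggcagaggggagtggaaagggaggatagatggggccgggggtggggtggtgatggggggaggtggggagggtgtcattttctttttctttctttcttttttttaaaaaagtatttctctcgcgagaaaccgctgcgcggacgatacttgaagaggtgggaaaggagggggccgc
Crhr1 (chr11:104132531-104132780, plus strand): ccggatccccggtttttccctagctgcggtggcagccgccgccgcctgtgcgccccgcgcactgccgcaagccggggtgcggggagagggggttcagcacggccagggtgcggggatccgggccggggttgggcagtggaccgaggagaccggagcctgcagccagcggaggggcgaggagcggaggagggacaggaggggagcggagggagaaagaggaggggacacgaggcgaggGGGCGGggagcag
Kcnc1 (chr7:46396218-46396467, plus strand): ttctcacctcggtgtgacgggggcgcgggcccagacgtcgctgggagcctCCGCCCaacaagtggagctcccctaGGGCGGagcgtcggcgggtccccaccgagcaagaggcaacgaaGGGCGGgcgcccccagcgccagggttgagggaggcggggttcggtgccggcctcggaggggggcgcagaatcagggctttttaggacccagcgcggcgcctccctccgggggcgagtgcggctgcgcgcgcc
Igf2bp3 (chr6:49214955-49215204, minus strand): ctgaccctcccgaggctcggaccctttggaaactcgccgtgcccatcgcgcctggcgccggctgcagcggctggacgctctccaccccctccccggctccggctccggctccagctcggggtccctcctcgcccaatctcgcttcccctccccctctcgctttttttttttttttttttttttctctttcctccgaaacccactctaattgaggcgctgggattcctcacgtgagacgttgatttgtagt
9330179D12Rik (chr6:127149139-127149388, plus strand): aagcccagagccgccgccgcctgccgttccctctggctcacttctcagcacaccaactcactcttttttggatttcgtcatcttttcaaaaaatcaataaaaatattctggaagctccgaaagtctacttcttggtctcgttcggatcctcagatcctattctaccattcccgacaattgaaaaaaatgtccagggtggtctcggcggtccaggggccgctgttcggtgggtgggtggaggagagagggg
Myt1 (chr2:181796057-181796306, plus strand): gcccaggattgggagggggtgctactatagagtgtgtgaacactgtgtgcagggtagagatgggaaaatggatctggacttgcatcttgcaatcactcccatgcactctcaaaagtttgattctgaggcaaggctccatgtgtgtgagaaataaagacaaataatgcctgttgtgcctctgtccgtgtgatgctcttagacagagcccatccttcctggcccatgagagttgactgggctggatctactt
Prr5 (chr15:84680748-84680997, plus strand): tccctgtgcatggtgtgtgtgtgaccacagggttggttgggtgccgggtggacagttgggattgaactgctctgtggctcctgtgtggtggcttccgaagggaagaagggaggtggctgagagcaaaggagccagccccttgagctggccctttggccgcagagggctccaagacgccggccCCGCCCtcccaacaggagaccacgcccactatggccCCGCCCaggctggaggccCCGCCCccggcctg
Of the 250 bases printed, all lay inside the neonatal region at Crhr1, 91 at Fbn1, 80 at Myt1, 73 at 9330179D12Rik and 43 at Prr5, and none at Kcnc1 or Igf2bp3. The sequences differ widely in base composition. G and C made up 74.8% of the Crhr1 sequence and 74.4% of the Kcnc1 sequence, with 25 and 30 CG dinucleotides, and 49.2% of the Myt1 sequence, with 1 CG dinucleotide. Prr5 and Kcnc1 held 3 GC boxes each, Fbn1 and Crhr1 1 each, and the other 3 sequences none.

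Over all 249 regions, 42 overlapped a RefSeq promoter window, and together they covered 47 windows of 43 genes. The median GC content of these 47 windows of 300 bases was 60.0% (quartiles 54.8% and 66.0%), between the 53.0% of all 32585 windows and the 65.3% of the 7442 windows under regions shared by neonatal and adult cells. With lists of equal length it was 67.0%, above both. CpG-rich windows, defined by at least 55% GC and an observed-to-expected CG ratio of at least 0.65, made up 31.9% (15 of 47) here, 28.2% of all windows, 36.5% of 378 windows under peaks of a single neonatal list and 72.2% of those under shared regions. The median observed-to-expected CG ratio was 0.548 over the 47 windows and 0.829 over those under shared regions.

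Short motifs were counted on both strands of the same 300-base windows. The GC box GGGCGG was in 18 of 47 windows (38.3%), against 35.9% of all windows and 72.7% of those under shared regions. The CCAAT box was in 25.5% of the 47 against 37.6% of all, the TATA motif TATAAA in none against 13.7%, and the E-box CAGCTG in 23.4% against 16.4%. For factors with roles in glial and neural progenitors, the SOX motif ACAATG was in 12.8% against 12.2% of all windows, the palindromic NFI motif in 6.38% (3 windows) against 1.39%, the POU motif ATGCAAAT in 2.13% against 1.75% and the homeodomain motif TAATTA in 2.13% against 5.26%. The remaining shares were 10.6% against 14.6% for the TEAD motif GGAATG, 2.13% against 7.85% for the AP-1 motif TGANTCA, 10.6% against 15.0% for the ETS motif CCGGAA, none against 2.71% for the NRF1 motif GCGCATGC and none against 1.80% for the CRE motif TGACGTCA. The CG dinucleotide, which also lies within the GC box, ETS, NRF1 and CRE motifs, was in all 47 windows and in 94.7% of all windows. All windows include 18327 under no peak. Shares under shared regions were closer to those of the 47 for TATAAA (4.69%), AP-1 (3.7%), CCAAT (31.8%), TEAD (10.6%) and homeodomain motifs. They were farther off for ETS (27.7%), NRF1 (5.63%), CRE (3.13%), SOX (6.29%), E-box (15.0%) and POU (1.01%). The NFI share there was 1.75%. For the closer motifs, a share below that of all windows is thus not particular to the 47. With 47 windows, 1 window moves a share by 2.13 percentage points, and a match is not evidence of binding.

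The regions from the lists as deposited differed from shared ones in where they lay. Promoters, which the authors annotated up to 3000 bp from a start, held 111 of the 249 (44.6%), distal intergenic sequence 69 (27.7%), introns 60 (24.1%), exons 7 and 3′ untranslated regions 2. Of the 8968 regions that neonatal lists shared with adult lists, 87.5% were promoters, 5.19% introns and 5.80% distal. Regions found in a single neonatal list and no adult list (5264) had a composition closer to that of the 249, with 37.3% promoters and 30.1% distal sequence. Among all merged regions the promoter share was 37.6%. The share was 56.4% (22 of 39) for regions in all 3 neonatal lists, and 65.1% without neonatal replicate 2. With lists of equal length, the rule kept 1327 regions with 82.4% promoters and 7.99% distal sequence, close to the shares of the shared regions.

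**Figure D1:**
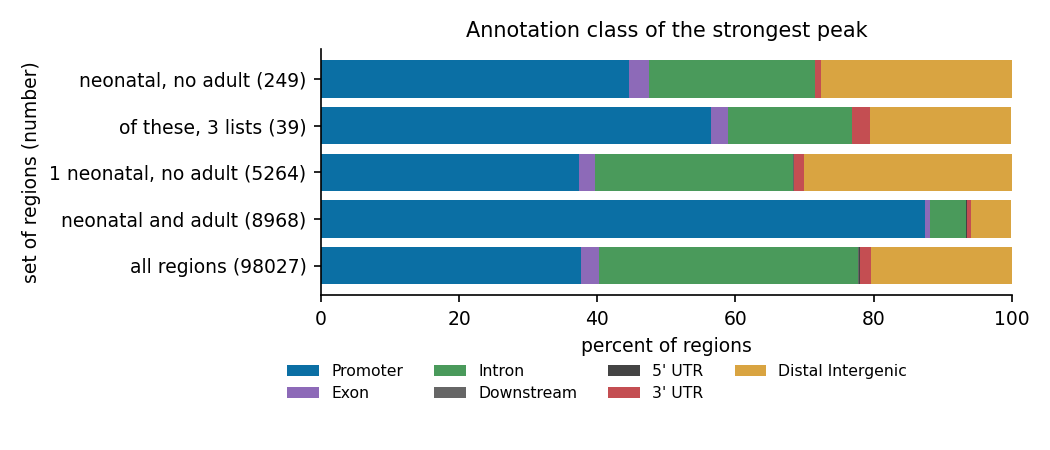
Annotation class of the strongest neonatal peak (or strongest peak, where no neonatal list held one) in 5 sets of regions, in percent of regions. Promoters make up 44.6% of the 249 neonatal regions without an adult peak and 87.5% of the 8968 with one.

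Among the 111 promoter regions, 91 lay within 1000 bp of a start and 41 covered it. Of the 60 intronic regions, 21 lay in a first intron. Distal regions lay a median of 19.9 kb from the nearest start (3.03 to 101 kb). The 249 regions were short, with a median width of 469 bp (179 to 2608 bp), against 1355 bp for shared regions and 212 bp for single-list regions. Chromosome X held none of the 249 and 0.542% of the regions found in 2 or more neonatal lists.

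The median strength of the peaks in these regions was at or below the middle of their own lists. The authors' fold enrichment, a linear ratio over background, had a median of 4.12 in replicate 1 (2.89 to 8.22), 4.81 in replicate 2 (2.62 to 10.4) and 4.03 in replicate 3 (2.94 to 6.22). These medians lay at percentile 27.9, 50 and 27.4 of their lists, and 1, 4 and 0 of the regions were in the upper 10% of the list. Shared regions had higher median folds, of 4.93, 7.63 and 4.71 in replicates 1, 2 and 3. The summits of replicates 1 and 2 lay a median of 77.5 bp apart over 192 regions, and 81.2% were within 200 bp of each other. Summits in replicates 2 and 3 were within 200 bp in 69.8% of 96 regions, and those of replicates 1 and 3 in 84.6% of 39. The shares for shared regions were 78.0% for replicates 1 and 2, 80.0% for 2 and 3 and 76.5% for 1 and 3. For the same pairs, the median summit distance was 77.5, 123 and 89 bp here. It was shorter in shared regions, at 58, 54 and 65 bp.

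The strongest region in all 3 neonatal lists lay in intron 2 of Igf2bp1 (chr11:95990786-95991829), which encodes an RNA-binding protein of fetal and tumour cells that binds Igf2 and other mRNAs. Its fold enrichment was 8.22, 9.70 and 6.22 in replicates 1, 2 and 3, the highest of any of the 249 regions in replicates 1 and 3, and the nearest adult peak was 42.4 kb away. A region over a start of its paralog Igf2bp3 (chr6:49213734-49214505) reached 5.22, 6.31 and 3.87, with the nearest adult peak at 48.7 kb. Another promoter peak assigned to Igf2bp3 was in all 3 adult lists. They were the 2 genes with an assigned region on a list of 20 oncofetal and imprinted growth genes. Another region, a distal one assigned to Gm24298, had as its nearest protein-coding gene Hmga2 of the same list, a chromatin protein of fetal stem cells, 76.0 kb away; its folds were 3.93 and 3.67 in replicates 2 and 3, and replicate 1 held no peak.

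**Figure D2:**
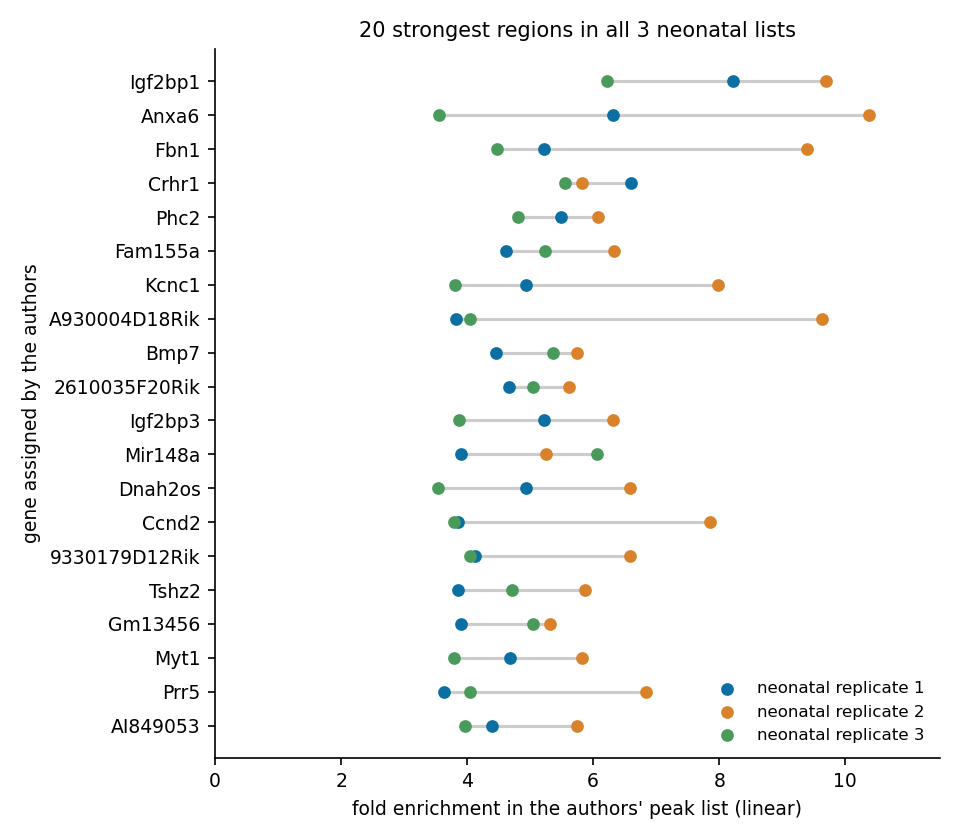
Fold enrichment as listed by the authors in each of the 3 neonatal libraries (points; the grey line joins the lowest and highest) for the 20 regions in all 3 neonatal lists with the highest geometric mean fold, named by the assigned gene. Igf2bp1 leads with 8.22, 9.70 and 6.22. By the rule that chose them, no adult list holds a peak in any of the 20.

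Of the 20 strongest such regions, 14 were promoters, 4 intronic and 2 distal. An adult peak lay within 1000 bp of 8 of them. Replicate 2 held the highest listed fold in 18 of the 20, the exceptions being Crhr1 and Mir148a; folds of separate lists share no common scale. After Igf2bp1 came intron 1 of Anxa6, which encodes a calcium-dependent membrane-binding protein, with 6.32, 10.4 and 3.56. Next was the promoter of Fbn1, the gene of the extracellular matrix protein fibrillin-1, with 5.22, 9.39 and 4.47. An adult peak began 119 bp from the Fbn1 region and 6.35 kb from the Anxa6 region, so the first of these borders sequence that is marked in adult cells.

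The promoter of Crhr1, a receptor for corticotropin-releasing hormone, was next, with folds of 6.60, 5.83 and 5.56. Intron 7 of Phc2, a Polycomb group gene, followed with 5.50, 6.08 and 4.80. The promoter of Fam155a, an auxiliary subunit of the sodium leak channel complex, had 4.62, 6.33 and 5.23, with an adult peak at 305 bp. That of Kcnc1, a voltage-gated potassium channel, had 4.93, 7.99 and 3.80, and the nearest adult peak was 112 kb away.

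Several regulators of transcription and signalling were among the 20. Ccnd2, which encodes the cell cycle activator cyclin D2, had folds of 3.85, 7.85 and 3.79 over its start. There the peaks of replicates 1 and 3, covering 166 and 173 bp, had no base in common and were joined by the wider replicate 2 peak. The long noncoding RNA gene 9330179D12Rik next to Ccnd2 had 4.12, 6.59 and 4.04, and the 2 regions together spanned 3.16 kb. A peak of adult replicate 3 with a fold of 2.87 lay between them. It was 515 bp from the 9330179D12Rik region and 1.01 kb from the Ccnd2 region. Tshz2, a zinc finger homeobox factor, had 3.85, 5.87 and 4.71 over a start. Bmp7, a secreted signalling ligand, had 4.46, 5.74 and 5.37 in intron 1, with an adult peak at 446 bp. Replicate 2 was the highest at each of these 4 regions. The region at 2610035F20Rik lay 132 bp from Zic2, a transcription factor of neural progenitors, and had 4.67, 5.61 and 5.05. An adult peak lay 383 bp from it. Besides 1 Myt1 region described below, the 20 were completed by A930004D18Rik, Dnah2os, Prr5 and AI849053 (promoters) and by distal regions assigned to Mir148a and Gm13456, with folds from 3.54 to 9.63.

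Among the 210 regions in exactly 2 neonatal lists, the strongest was the promoter of Gmpr, a guanosine monophosphate reductase, with 8.61 and 5.56 in replicates 2 and 3. Sfrp2, a secreted antagonist of Wnt signalling, had 7.64 and 5.14 in the same replicates over its start, and the nearest adult peak was 272 kb away. Replicates 1 and 2 held the other 8: a distal region by Vapb (5.50 and 8.61) and the promoters of Adgrl2 (5.22 and 8.72), Nat8l (4.93 and 8.17), Bcl11b (4.95 and 7.87), Trav3-4 (5.50 and 6.63), Serinc2 (4.96 and 7.29), Tada3 (5.50 and 6.33) and Nt5c1a (4.50 and 7.43). Adult peaks lay 179 bp from the Nat8l region, 578 bp from that of Bcl11b and 936 bp from that of Adgrl2. For the others of these 8, the nearest adult peak was 8.33 to 291 kb away. Bcl11b encodes a zinc finger factor of neurons and T cells, and Tada3 a subunit of histone acetyltransferase complexes. Trav3-4 is a variable segment of the T cell receptor alpha chain.

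The 249 regions were assigned to 223 genes, 0.952% of the 23433 genes that a peak of any list was assigned to and 1.35% of the 16543 with a neonatal peak. RefSeq held 175 of the 223 by symbol, among them 123 protein-coding, 29 long noncoding RNA and 4 microRNA genes. Of 269 genes on 13 lists for cell types, growth, division, patterning and signalling, 15 (5.58%) had a region. Genes on such lists can hold more peaks than the average gene, so the counts below are descriptions of the lists.

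Of the list of 16 OPC identity genes, 2 had a region. Sox5, a Sox family factor of immature progenitors, had 3.84 and 4.56 in replicates 1 and 2 at a promoter lying 151 kb from any adult peak, while another Sox5 promoter peak was in all 3 adult lists. Vcan, the proteoglycan versican, had 4.39 and 6.59, with an adult peak at 416 bp. A distal region 139 kb from Pdgfra, assigned to Gm18345, had 4.67 and 5.57 in the same replicates. No gene of the myelin list (16), of the microglia and endothelial list (16), of the fibroblast and mural list (16) or of the housekeeping list (16) had a region.

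Developmental regulators appeared in small numbers. Of 32 patterning homeobox genes, Gsx1, Gsx2 and Irx1 had regions; Gsx1 and Gsx2 specify ventral forebrain progenitors. The Gsx2 region, 8.06 kb upstream of its start, was in all 3 lists (4.40, 3.34 and 3.67), with the nearest adult peak at 22.1 kb. Gsx1 had 2 promoter regions (3.92 and 4.11, and 3.84 and 4.56, in replicates 1 and 2). Adult peaks lay 1.5 kb from the first and 303 bp from the second, and another Gsx1 promoter peak was in 2 adult lists. Irx1 had 3.76 and 5.44 with the nearest adult peak 455 kb away. Of 16 astrocyte and radial glia genes, Sox9, a factor of glial fate, had 4.12 and 5.07 at its promoter, and the adjacent BC006965, whose region lay 259 bp from Sox9, had 3.16 and 4.74. Of 27 axon guidance genes, the ephrin receptor gene Epha3 and the ephrin gene Efnb2 had regions. That of Epha3 lay in intron 1 (3.89 and 4.80 in replicates 2 and 3). That of Efnb2 was a promoter (4.52 and 4.56 in replicates 1 and 2). The nearest adult peak was 27.5 kb from the Sox9 region, 6.07 kb from that of Epha3 and 394 bp from that of Efnb2. The remaining hits were Sfrp2 and Bmp7 of 32 signalling genes, Bcl11b of 22 proneural and Sox factors and Ccnd2 of 20 cell cycle genes. Of 20 neuron genes it was Elavl4, an RNA-binding protein of neurons. Its promoter region lay 743 bp from an adult peak and its distal region 132 kb.

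Some loci held several regions. Within 50 kb of one another, the 249 regions formed 222 loci, of which 20 held 2 or more regions (47 regions in all). Myt1, a zinc finger factor expressed in OPCs, had 4 regions over 33.5 kb of chromosome 2, each annotated as a promoter: 2 were in all 3 neonatal lists (4.68, 5.83 and 3.79; 3.85, 5.83 and 3.58) and 2 in replicates 1 and 2 (6.16 and 4.07; 3.85 and 3.54). Within 50 kb of their middle, the neonatal lists held 6, 19 and 2 peaks and the adult lists 1, 0 and 3. An adult peak lay 478 bp from the first of the 4 regions and 17.9 to 24.2 kb from the others. Another Myt1 promoter peak was in 2 adult lists. A further 4 regions spanned 30.5 kb at AI849053 and Gm3764 on chromosome 3. Gm15322, Gm11650 (in and next to Cacng4) and the Sdc3 locus had 3 regions each, and Mcf2l, Nr2f2 and Ntm had 2 each. Myt1l and Elavl4 also had 2 regions each, lying farther apart than 50 kb.

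**Figure D3:**
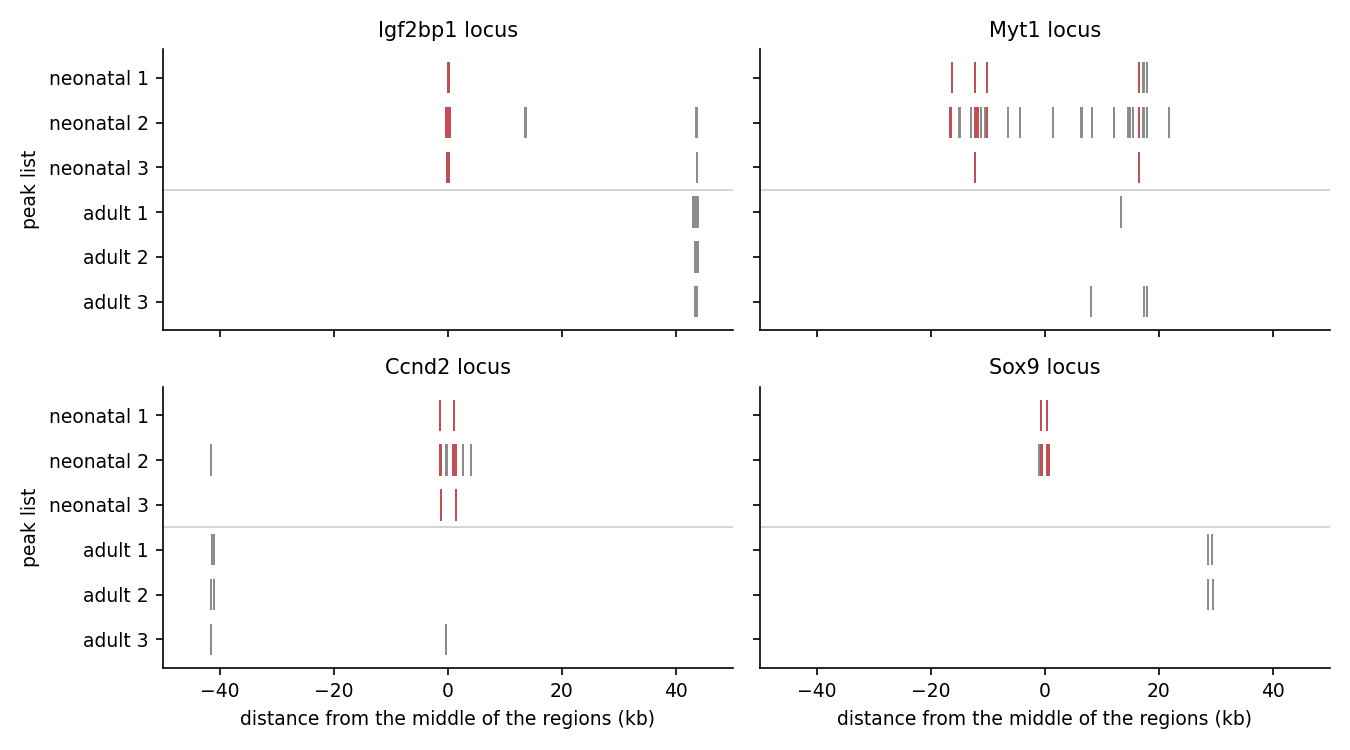
Peaks of the 6 lists within 50 kb of the middle of the regions at 4 loci, as distance in kb along the chromosome; red marks peaks inside one of the 249 regions, grey other peaks, and peaks narrower than 0.35 kb are drawn 0.35 kb wide. At Myt1, 4 regions hold neonatal peaks where the 3 adult lists hold 1, 0 and 3 peaks elsewhere in the window.

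The nearest adult peak lay a median of 10295 bp from a region, with a range from 8 bp to 597 kb. For 65 regions (26.1%) it was within 1000 bp, and for 15 regions all 3 adult lists had a peak within that distance, so these border sequence marked in adult cells. For 126 regions no adult list held a peak within 10000 bp. Promoter regions lay a median of 8334 bp from an adult peak, intronic ones 5180 bp and distal ones 24656 bp. Regions in a single neonatal list and no adult list gave similar values, with a median of 8260 bp and 27.2% within 1000 bp.

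**Figure D4:**
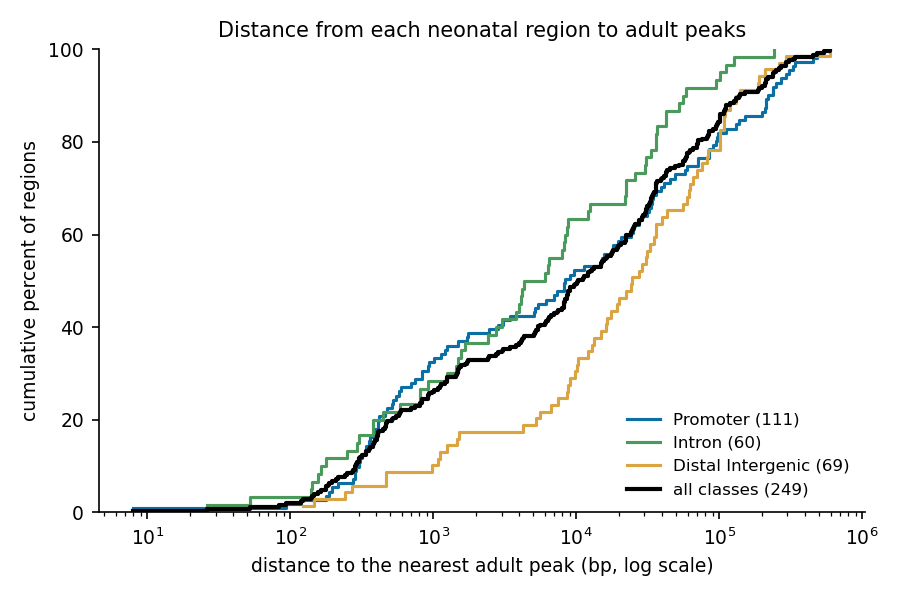
Cumulative percent of the 249 regions by distance to the nearest adult peak (bp, log scale), in all and by annotation class. The median is 10295 bp in all and 24656 bp for distal regions.

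A region without an adult peak did not always belong to a gene without one. The 111 promoter regions belonged to 103 genes. By the authors' assignment of peaks to genes, another promoter peak of the same gene was in no adult list for 51 of them, in 1 list for 12, in 2 lists for 11 and in all 3 for 29. For 7 of the 51, among them Fam155a, an adult peak assigned to another gene or class lay within 3000 bp of the region. The 51 included Crhr1, Kcnc1, Fam155a, Tshz2, Sfrp2, Irx1, Sox9 and Prr5, and the 29 included Igf2bp3, Sox5, Elavl4, Nr2f2, Sdc3, Mcf2l and Tada3.

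The authors' deposited table of differential sites compares the same libraries as the rule, so its values describe the regions and support nothing beyond them. The authors' deposited table gave 254 of 54838 tested sites (0.463%) as lower in adult cells at an adjusted p-value under 0.05 and 79.6% as higher. Of the 249 regions, 141 (56.6%) overlapped a site lower in adult cells in the authors' deposited table, none a higher one, and 108 no listed site. The share was 92.3% (36 of 39) for regions in all 3 neonatal lists and 50% (105 of 210) for those in 2. Without neonatal replicate 2 the rule gave 37 of 43 (86.0%). The 141 sites in these regions were 55.5% of all lower sites in the authors' deposited table.

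Adult peaks went with fewer such sites. With 2 or 3 neonatal lists and 1 adult list, 52 of 232 regions (22.4%) overlapped a lower site in the authors' deposited table, with 2 adult lists 26 of 318 (8.18%), and with 3 adult lists 18 of 8418 (0.214%). None of the 5264 regions in a single neonatal list did, and 1 overlapped a higher site. Such regions may not have been among the tested sites, so this share cannot be set against the others. In the authors' deposited table the log2 value, adult over neonatal, had a median of -1.80 within the regions (quartiles -2.18 and -1.55) and of -1.30 at the 113 lower sites outside them. By class the medians were -1.83 for 62 promoter regions, -1.71 for 35 intronic and -1.85 for 40 distal ones.

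**Figure D5:**
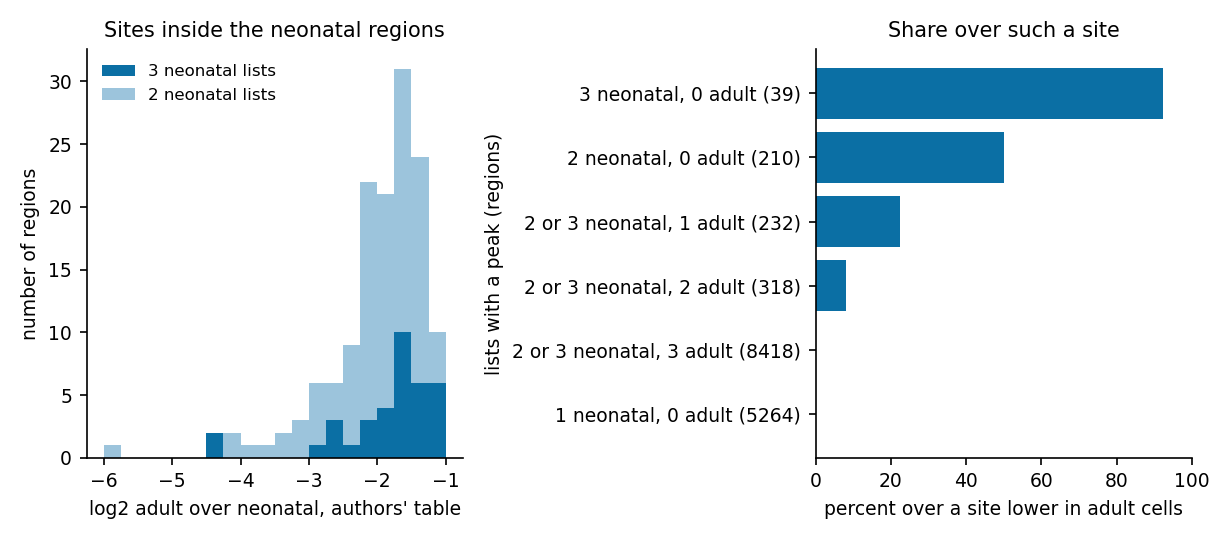
Left, number of regions by the log2 value (adult over neonatal) of the most negative overlapping site in the authors' deposited table, for regions in 3 and in 2 neonatal lists. Right, percent of regions over a site lower in adult cells, by the number of lists with a peak. The share is 92.3% with 3 neonatal and no adult lists and 0.214% with 3 adult lists. Regions in 1 neonatal list may not have been among the tested sites.

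Igf2bp1 and Igf2bp3 were among the regions with the most negative values, both at -4.45 in the authors' deposited table. Less negative in the authors' deposited table were a distal region assigned to Abcc12 (-4.12), Gm38106 (-4.04), an exon of Mylk, the myosin light chain kinase (-3.81), Gm17877 (-3.58), Lpcat1, an enzyme of phospholipid remodelling (-3.47), Gm24298 near Hmga2 (-3.45) and Gm13874 (-3.20). Sox5 was at -3.00, Ccnd2 at -2.60, Gsx2 at -2.58 and Sox9 at -1.94 in the authors' deposited table. The values closest to 0 among the regions were -1.07 at Gm43206, whose nearest coding gene was Sox2, -1.11 at Gm15322, -1.12 at Gm14618, -1.15 at Tshz2 and -1.18 at 1700108F19Rik, again in the authors' deposited table.

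The limits of the rule are seen at its edges, given here as values with no test. Inside, the weakest second neonatal peak was at the promoter of Slc22a6, with -log10 q of 1.48 in replicate 1 and 4.33 in replicate 2. Outside by a single weak adult peak was Stat6, whose promoter had neonatal folds of 3.30 and 4.86 and a fold of 2.54 in adult replicate 1 with -log10 q of 1.32. Outside because replicate 2 alone held a peak were a distal Prr5 region with a fold of 9.12 and a region 2015 bp upstream of Pdgfra with 8.11. In that library 4 of the 249 regions reached the fold of the first and 11 that of the second.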

How the data were processed

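H4K8ac ChIP-seq was measured in 3 neonatal and 3 adult samples of sorted forebrain cells, and the 6 input samples were not analysed here. Per the submitters' processing notes, Trim Galore, Bowtie2 2.4.5, SAMtools, deepTools, MACS2, DiffBind and ChIPseeker were used with GRCm38; their settings are not given in the sources used here. The authors deposited 1 peak list per library, with a fold enrichment (a linear ratio), −log10 of the p-value and of the q-value for each peak, and an annotation with a class and a gene, per the file headers. Each library thus had its own calls, and a longer list gives each region more chances of a peak. The authors' deposited table of differential sites holds for each site its log2 fold change with raw and adjusted p-value. It names no direction; negative sites overlapped neonatal peaks in 78.0%, 98.0% and 54.7% and adult peaks in 23.2%, 15.7% and 18.9% of cases (replicates 1 to 3), and were read as lower in adult cells. The number of tested sites was recovered from its p-values, within 1 for 88.8% of the listed sites.

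Peaks were merged with Python 3.11.15, pandas 2.3.3 and NumPy 2.4.6, in functions tested on simulated data. The strongest neonatal peak by q-value gave a region its class and gene. No test was run, since the rule used the same lists. The members, the gene lists and the motifs were chosen with earlier results of these data known. Named were the 20 strongest regions in 3 neonatal lists and the 10 strongest in 2, by geometric mean fold; the 10 most and 5 least negative sites; listed genes with a region; up to 10 genes with 2 or more regions; the regions at the edges of the rule; and promoter sequences of the first 20. Of the regions this rule names, 1 is not reported here. Genes given as examples among counts were chosen after their values were seen. No genome was used here, so GC content refers to RefSeq promoter windows. The 5 results were recomputed under 13 alternatives.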

Additional observations from a re-analysis of the deposited data

How the results depend on the processing

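No paired analysis was possible because no result comes from a test. The number of regions stayed within 1.5 times of 249 under stricter q-values and merging within 1000 bp. It also did with at least 50% coverage and with separate merging of the neonatal peaks. The regions themselves were not all the same. With a q-value under 0.005 in all lists, 209 of the 249 were overlapped. With merging within 1000 bp it was 173 of the 249, and with 50% coverage 128. All 249 were overlapped with that q-value limit for adult peaks only and with separate merging. The number of regions was 1327 with lists of equal length (36 of the 249 overlapped) and 39 with all 3 neonatal lists required. Leaving out 1 library gave 43 to 370, with 96 without neonatal replicate 1 and 43 without neonatal replicate 2. The promoter share, 44.6%, was 45.7% with a q-value under 0.005 in all lists, 45.7% with that limit for adult peaks only, 82.4% with equal lengths, 37.3% with merging within 1000 bp, 49.8% with 50% coverage, 56.4% with 3 lists and 44.8% to 65.1% with a library left out. The distal share, 27.7%, was 7.99% with equal lengths, 34.6% with merging within 1000 bp, 22.9% with 50% coverage, 20.5% with 3 lists and 14.0% to 27.6% with a library left out. Regions over a site lower in adult cells in the authors' deposited table, 141, numbered 36 with 3 lists, 103 with equal lengths and 37 to 165 with a library left out. The median GC content of promoter windows, 60.0%, was 67.0% with equal lengths, 64.0% with 50% coverage and 60.0% to 65% with a library left out. Equal lengths keep 7353 peaks per list, so weaker adult peaks no longer bar a region. They also shorten the lists of neonatal replicates 1 and 2 from 9097 and 31189 peaks, so weaker neonatal peaks no longer count towards one. Read depth, which limits which peaks could be called, is unknown.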

Other observations

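Among the 19 weaker regions in all 3 neonatal lists were those of Gldn, Fgfr1 and Trio, named here after their values were seen. Others of the 19 were assigned to genes such as Zfp599, Slc2a9, Proser2 and Tacc2. The promoter of Gldn, which encodes the node of Ranvier protein gliomedin, had folds of 4.12, 6.08 and 3.96 in neonatal replicates 1, 2 and 3, and the nearest adult peak was 214 kb away. A promoter of Fgfr1, a fibroblast growth factor receptor, had 4.11, 5.67 and 4.29, and intron 34 of Trio, a guanine nucleotide exchange factor of migrating neurons, had 3.85, 5.07 and 4.55. In the authors' deposited table the log2 values, adult over neonatal, were -2.82 at Gldn, -1.39 at Fgfr1 and -1.71 at Trio. Adult lists held a peak 3.09 kb from the Fgfr1 region and 141 bp from the Trio region, and another Fgfr1 promoter peak was in all 3 adult lists, whereas none held one at Gldn.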
